A study of Corbicula fluminea with 24 samples.

Results

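Digestive gland libraries of the freshwater clam Corbicula fluminea were compared between 6 clams with much and 6 clams with little vitellogenin transcript, all of them rich in digestive enzyme transcripts. The series holds 24 RNA-seq libraries, 1 per clam, from 8 clams at each of 3 sites, where they had been kept in cages from December to March. The sites were a position downstream of a wastewater treatment plant (WWTP), a position downstream of an urban runoff effluent, and a reference position. The 12 clams were chosen from measured values: the 17 libraries with at least 100 CPM (counts scaled to a common column total) of GUN, a contig named for endoglucanase, an enzyme that cuts cellulose, were ranked by CPM of the vitellogenin contig Vg.1.2. The 6 highest of these 17 are called high vitellogenin clams here and the 6 lowest low vitellogenin clams. The high vitellogenin group holds individuals 33, 37, 38 and 47 from the WWTP site and 29 and 31 from the reference site. The low vitellogenin group holds individuals 46 and 48 from the WWTP site, 50 and 60 from the urban runoff site and 22 and 23 from the reference site. The groups are ranks of a transcript and no treatment, and the sex, age and reproductive stage of the clams were not given in the sources used here.

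Vitellogenin is the large lipid-carrying protein from which egg yolk is made. In bivalves it is associated with the female part of the gonad, which grows around and between the tubules of the digestive gland in the visceral mass, and many Corbicula are hermaphrodites. The digestive gland itself takes up and breaks down food inside its cells, secretes enzymes into the gut and stores lipid. Gene names below are those of the deposited table, and each role is the one known for that gene elsewhere in the animal kingdom. Several contigs can share a name and then differ in the numbers after it (LYS3.3.4 and LYS3.4.4); reads may have been split between them.

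The values that made the choice are given as a description, with no test. Vg.1.2 was at 5929, 3033, 1788, 1754, 1633 and 1366 CPM in the high vitellogenin clams 33, 29, 31, 37, 47 and 38, and at 858.1, 676.2, 570.5, 431.8, 93.3 and 41.7 CPM in the low vitellogenin clams 23, 46, 50, 22, 48 and 60. The nearest libraries outside were urban runoff individual 55 at 1101 CPM, below the high group, and urban runoff individual 49 at 910.4 CPM, above the low group. GUN was at 135.7 to 666.8 CPM (median 487.9) in high vitellogenin clams and at 618.0 to 812.8 CPM (median 699.2) in low vitellogenin clams, so the minimum of GUN did not make the groups equal in it. WWTP individual 33 lay just inside this minimum at 135.7 CPM, and reference individual 30 just outside at 99.3 CPM. Both vitellogenin contigs together took 0.329% to 1.48% of all counts in high vitellogenin clams and 0.0122% to 0.223% in low vitellogenin clams.

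**Figure D1:**
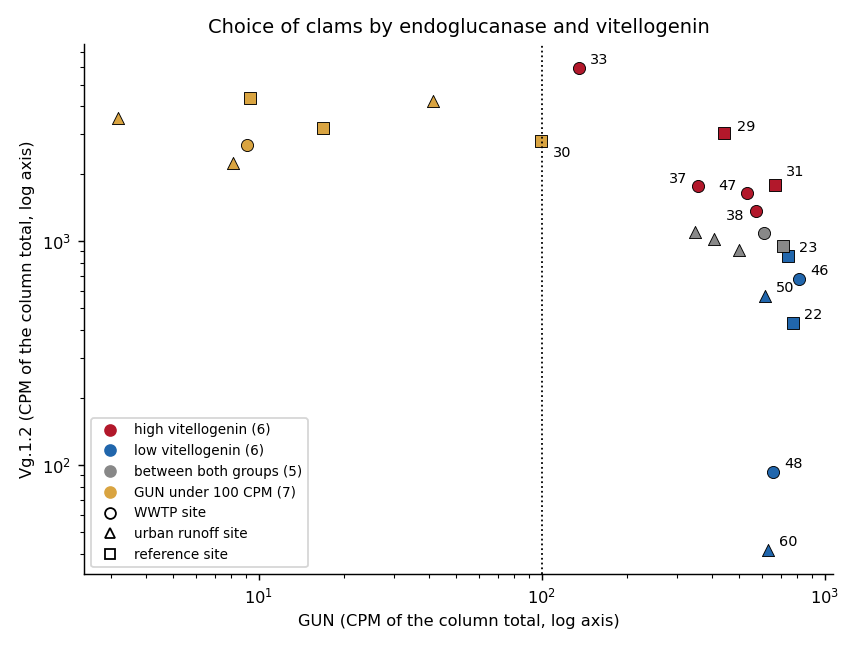
CPM of Vg.1.2 against CPM of GUN, both per column total on log axes, with 1 point per clam, colours for the 4 sets of clams and shapes for the sites; the dotted line is the minimum of 100 CPM of GUN. Individual 33 stands apart among the high vitellogenin clams with the least GUN and the most Vg.1.2, and individuals 48 and 60 stand apart at the lower end of Vg.1.2.

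Library measures outside the rule did not separate the groups beyond the spread between clams. Total counts averaged 62.7 ± 14.7 M in high and 75.6 ± 15.3 M in low vitellogenin clams (SD, n = 6 each; two-sided exact permutation test over 924 splits, p = 0.169). Contigs with a count averaged 58109 ± 62.8 and 57973 ± 163 of 58291 (exact permutation p = 0.0931). Each group had 3 libraries in each of the 2 sequencing lanes. No urban runoff clam was among the high vitellogenin clams, and the make-up by site differed with an exact permutation p of 0.481. Levels below are in CPM of library sizes scaled with TMM factors, at which 3 counts, the limit set by a count of 0, are worth 0.0307 to 0.0729 CPM; this limit and the totals speak to counting error only. These levels are not per length and are compared between clams, not between genes.

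Between high and low vitellogenin clams, 9492 of 56832 contigs (16.7%) passed edgeR's quasi-likelihood test at a Benjamini-Hochberg adjusted p under 0.05, with 4714 higher (8.29%) and 4778 lower (8.41%) in high vitellogenin clams. Among contigs with a gene symbol 341 of 1567 passed (21.8%), and more of them were higher (222, 14.2%) than lower (119, 7.59%). Contigs that carry a locus number or tag also leaned upward, with 2824 higher and 1299 lower, whereas contigs with nothing but a contig number leaned downward, with 1668 higher and 3360 lower. The rises held more large changes: 1603 contigs rose and 646 fell beyond 2-fold, and 206 rose and 7 fell beyond 4-fold. The values of the groups did not overlap for 3856 contigs (6.78%), of which 1285 (2.26%) lay above and 2571 (4.52%) below in all high vitellogenin clams.

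The count of calls depended on single clams and on terms for site and GUN. Without individuals 48 and 60, the clams lowest in Vg.1.2, edgeR called 1 contig (13345 at an unadjusted p under 0.05). With site as a term it called 0 contigs (15952 unadjusted), and with log2 CPM of GUN as a term also 0 (10988 unadjusted), and neither set of terms was fitted with another tool. The 9492 contigs kept their sign without individuals 48 and 60 and with site as a term (100% each), with a median absolute log2 fold change of 0.67 and 0.68, against 0.75 over the 12 libraries. With GUN as a term 99.99% kept it, at a median of 0.54. Without individual 33, the clam with the least GUN, that term gave a median of 0.67 and 53 calls. The smallest adjusted p of edgeR was 0.0667 with site and 0.0701 with GUN as a term, and with lane as a term 10537 contigs passed, 9088 of them among the 9492. Without individual 60 alone 2284 contigs passed, without 48 alone 3027, without 29 alone 3652, without 50 alone 4364, without 47 alone 4644 and without 23 alone 5268; leaving out any of the other 6 clams gave 7446 to 11830. Scaled by library totals alone, the split moved to 7935 higher and 1934 lower, and over all contigs the median log2 fold change moved to 0.14, against 0.02 with TMM factors, so directions below are relative to the TMM scale. High and low vitellogenin clams also differed in GUN and in site make-up, and the part of either in the results cannot be told apart from that of vitellogenin by these counts of calls.

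**Figure D2:**
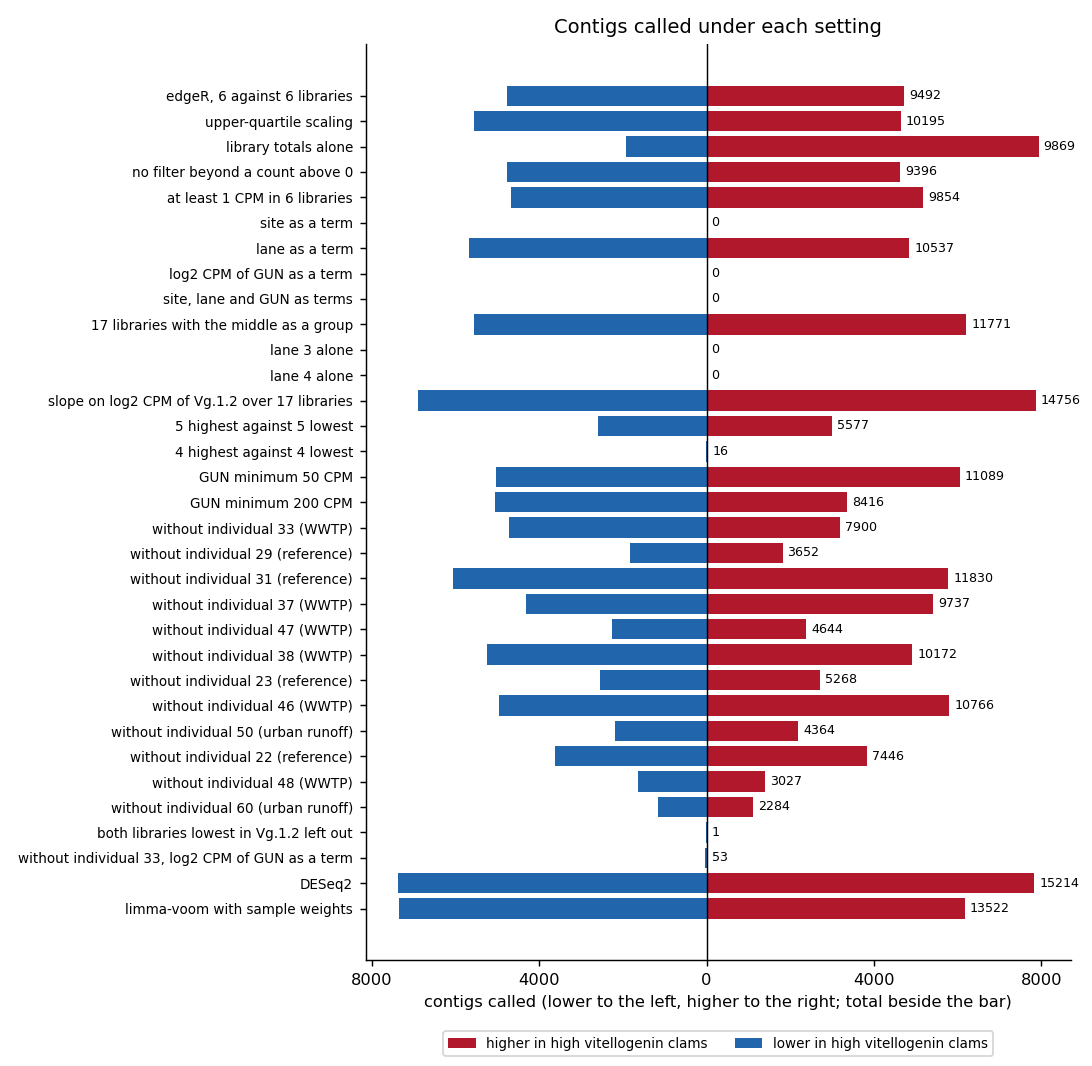
Contigs called lower (blue, left of 0) and higher (red, right of 0) in high vitellogenin clams under each setting, with the total beside each bar. The total was 9492 over the 12 libraries, 0 with site or GUN as a term, and 1 without both clams lowest in Vg.1.2.

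The list of cell division genes stood higher in high vitellogenin clams. Of 18 contigs tested, 7 rose and 0 fell, against 14.2% and 7.59% of all symbols. The 18 included contigs named H2AV, H33 and h3f3b, histones that are also made outside cell division. All 18 had a positive log2 fold change, with a median of 0.97. This median was 1.03 with GUN as a term and 0.72 without individuals 48 and 60. The level of cks1b, a small subunit that binds cyclin-dependent kinases, was 3.61 to 4.57 CPM (median 3.95) in high and 2.18 to 2.99 CPM (median 2.54) in low vitellogenin clams. The groups did not overlap, and the log2 fold change of cks1b was 0.66 (SE 0.114, edgeR adjusted p = 0.0146); it passed without any 1 of the 12 clams. KIF15, a kinesin of the mitotic spindle, was at 9.66 to 23.2 CPM (median 17.2) in high and 5.07 to 11.9 CPM (median 7.64) in low vitellogenin clams (log2 fold change 1.05, edgeR adjusted p = 0.0233). The centromere proteins CENPT (log2 fold change 1.30), CENPP (1.32) and CENPK (0.78) rose too, as did RIR2 (1.36), a subunit of the ribonucleotide reductase that makes the building blocks of DNA. In whole glands, more cells of a type and more RNA of these genes per cell cannot be told apart.

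Transcripts of egg, germline and sperm were few in the table. The egg list held CCNB, the mitotic cyclin B, and ZAR1, a protein of oocytes in vertebrates; neither passed, and their summed level was 23.1 to 56.8 CPM (median 33.3) in high and 10.3 to 30.0 CPM (median 17.7) in low vitellogenin clams. The germline list held DAZP1, MSH4, PRDM9 and TDRD3, with a median log2 fold change of 0.65. The sperm list held cfap44, cfap65, MEIG1 and spata22, with a median of 0.49. Of these 8, 0 passed the edgeR test, against 21.8% of all symbols. The summed germline level of 32.8 to 78.2 CPM in high vitellogenin clams overlapped with that of 22.8 to 46.1 CPM in low vitellogenin clams.

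Among the 10 symbols with the largest rises, C1QTNF3 and sall1.1.2_bis were higher in every high than in any low vitellogenin clam. C1QTNF3, a secreted protein with a C1q domain, was at 355, 222, 134, 87.9, 144 and 65.9 CPM in high vitellogenin clams 33, 29, 31, 37, 47 and 38, and at 38.3, 46.6, 63.3, 64.5, 9.76 and 7.10 CPM in low vitellogenin clams 23, 46, 50, 22, 48 and 60. The groups met at the edge without overlap, and the log2 fold change came to 2.13 (SE 0.577, edgeR adjusted p = 0.031), or 1.67 without individuals 48 and 60. The contig sall1.1.2_bis, named for a zinc finger transcription factor of the spalt family, was at 2.95 to 7.0 CPM (median 6.08) in high and 1.0 to 2.11 CPM (median 1.18) in low vitellogenin clams. It did not overlap between the groups, it rose by 2.05 on the log2 scale (SE 0.239, edgeR adjusted p = 0.0115), and it passed without any 1 clam. With GUN as a term its log2 fold change was 1.88, and without individuals 48 and 60 it was 1.91.

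FCN2.2.4, named for ficolin, a lectin that binds microbial sugars, rose with a log2 fold change of 1.93 (SE 0.469, edgeR adjusted p = 0.0243). It was at 2.53 to 13.6 CPM (median 11.3) in high and 1.45 to 5.84 CPM (median 1.84) in low vitellogenin clams, and the groups overlapped. ANR52.1.2, named for an ankyrin repeat subunit of protein phosphatase 6, rose with a log2 fold change of 1.85. DOPR4 (3.05) and sidkey-239b22.1 (3.27), whose roles are left out here, also passed with overlap. With 1 clam left out at a time, DOPR4 lost its call in 8 of 12 fits and sidkey-239b22.1 in 9. The lowest log2 fold change of DOPR4 in these fits was 2.06. OCDH, octopine dehydrogenase, which lets molluscan muscle work with little oxygen, was at 3.51 to 56.4 CPM (median 5.84) in high and 0.954 to 3.73 CPM (median 2.96) in low vitellogenin clams. Individual 33 held its highest value. The log2 fold change of 2.42 was 0.45 with GUN as a term, or 0.80 with that term and without individual 33. Leaving out 1 clam took the log2 fold change of OCDH as low as 1.15.

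The chymotrypsin-like and tryptase-like contigs had the largest fold changes among the symbols named, and both were split among high vitellogenin clams. ctrl.L, a chymotrypsin-like serine protease of the gut, was at 317, 117, 117, 18.1, 11.2 and 2.48 CPM in high vitellogenin clams 37, 31, 47, 29, 33 and 38, and at 3.62 to 26.2 CPM (median 6.85) in low vitellogenin clams. It rose by 3.37 on the log2 scale (SE 1.04, edgeR adjusted p = 0.0473), and 1 high vitellogenin clam lay below every low one. TRYM, named for a serine protease of the tryptase type, was at 78.4 and 48.9 CPM in high vitellogenin clams 47 and 31. It was at 1.46 to 2.42 CPM in the other 4, against 1.48 to 1.92 CPM in low vitellogenin clams. Its log2 fold change of 3.67 (SE 1.11, edgeR adjusted p = 0.045) thus came from 2 clams. Both were sequenced in lane 4, where the log2 fold change of TRYM was 4.64, against 0.07 in lane 3. With 1 clam left out at a time, ctrl.L lost its call in 10 of 12 fits and TRYM in 9.

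Muscle lies around the gut and gland and is a tissue other than the digestive epithelium. Of 20 muscle contigs 2 rose and 0 fell, 10% of the list against the 14.2% of all symbols that rose. Their median log2 fold change was 1.55, but 0.03 with GUN as a term. The summed muscle level was 3840 to 19734 CPM (median 4490) in high and 3593 to 4789 CPM (median 4088) in low vitellogenin clams, with individual 33 at the top. TPM.1.5, tropomyosin, which winds along the thin filament, was at 1674 CPM in individual 33 and 112 to 300 CPM in the other 5 high vitellogenin clams, against 38.8 to 136 CPM in low vitellogenin clams. Its log2 fold change of 2.11 (edgeR adjusted p = 0.0488) was 0.19 with GUN as a term, or 0.58 with that term and without individual 33. Leaving out 1 clam took the log2 fold change of TPM.1.5 as low as 0.86. MYS.1.2, myosin heavy chain, was at 112 to 4264 CPM (median 256) in high and 37.2 to 280 CPM (median 136) in low vitellogenin clams. It did not pass (log2 fold change 2.63, edgeR adjusted p = 0.0693). Leaving out 1 clam took this log2 fold change as low as 0.90. Projectin, a giant protein of insect muscle that the list does not hold and that was picked after its values were seen, fell without overlap, at 3.60 to 11.4 CPM in high and 13.5 to 17.4 CPM in low vitellogenin clams (log2 fold change −0.87, edgeR adjusted p = 0.0212). The part of muscle in the other results was not tested.

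Of 34 cilia and tubulin contigs 10 rose and 1 fell, against 14.2% and 7.59% of all symbols, and their median log2 fold change was 0.55, or 0.35 with GUN as a term. TBA3.2.3, an alpha-tubulin, was at 410 to 1162 CPM (median 677) in high and 212 to 557 CPM (median 317) in low vitellogenin clams (log2 fold change 1.08, edgeR adjusted p = 0.0313). TBA1.5.7 rose by 1.35 and the beta-tubulins TBB2 and TBB.11.11 by 1.84 and 1.58 on the log2 scale. TBA1.6.7 went the other way without overlap, at 234 to 637 CPM in high and 703 to 863 CPM in low vitellogenin clams (log2 fold change −0.72). Tubulins build cilia, the mitotic spindle and the cytoskeleton alike. CCDC172, a coiled-coil protein, rose by 0.46.

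Of 10 shell and mantle contigs 3 rose, and 1 fell (Perlucin, a protein of nacre, with no overlap and a log2 fold change of −0.79), against 14.2% and 7.59% of all symbols. CAH2, carbonic anhydrase, which interconverts carbon dioxide and bicarbonate and is used in laying down shell, was at 23.6 to 84.7 CPM (median 44) in high and 6.55 to 26.2 CPM (median 15) in low vitellogenin clams. It rose by 1.70 on the log2 scale (SE 0.372, edgeR adjusted p = 0.0182), and it passed without any 1 clam. CO4A1, a collagen of basement membranes, rose with a log2 fold change of 1.30, and its highest value, 78.5 CPM, was in individual 33. Leaving out 1 clam took the log2 fold change of CO4A1 as low as 0.77. COL12 rose by 0.68 on the log2 scale. Of 10 nervous contigs 3 rose and 0 fell, where 14.2% of all symbols rose. Among them was Syt7, a synaptotagmin that senses calcium in vesicle release, at 2.98 to 7.56 CPM (median 6.0) in high and 1.60 to 4.60 CPM (median 2.42) in low vitellogenin clams (log2 fold change 1.02, edgeR adjusted p = 0.0266).

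A set of 7 sarcoplasmic calcium-binding proteins, which buffer calcium in invertebrate muscle and other cells and were grouped after their values were seen, held 4 rises and 0 falls with a median log2 fold change of 1.33; 14.2% of all symbols rose. SCP.7.7 was at 77.0 to 232 CPM (median 116) in high and 26.2 to 53.6 CPM (median 41.8) in low vitellogenin clams, with no overlap (log2 fold change 1.66, edgeR adjusted p = 0.015). SCP.5.7 and SCP.6.7 did not overlap either. The count of rises follows in part from the grouping.

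Mitochondria make some of their proteins on ribosomes of their own. A set of 30 contigs of mitochondrial ribosomes, RNA handling and translation was grouped after their values were seen. Of these 30 contigs 14 rose and 0 fell, against 14.2% and 7.59% of all symbols. All 30 log2 fold changes were positive with a median of 0.55. These counts and signs follow in part from the grouping. The level of mrpl49, a protein of the large mitochondrial ribosomal subunit, was 8.97 to 19.0 CPM (median 12) in high and 6.14 to 9.92 CPM (median 7.81) in low vitellogenin clams (log2 fold change 0.72, edgeR adjusted p = 0.0247). FASTKD1, which acts on mitochondrial RNA, rose by 0.54, tfam, which packs mitochondrial DNA, by 0.60, and CLPP, a protease of the mitochondrial matrix, by 0.84 on the log2 scale. Of the 6 contigs encoded by the mitochondrial genome 0 passed the edgeR test, against 21.8% of all symbols. Their median log2 fold change was 0.35, or 0.00 with GUN as a term. Of 24 contigs of respiration and energy supply 2 rose, the creatine transporter SC6A8 (log2 fold change 1.18) and the hexokinase HXK2 (0.65), 8.33% of the list against 14.2% of all symbols.

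Few genes of translation outside mitochondria passed. Of 40 contigs of ribosome and translation 2 rose and 0 fell, 5.0% of the list against 21.8% of all symbols, although 39 had a positive log2 fold change with a median of 0.27. The rises were eif4g1, the scaffold of the cap-binding complex (log2 fold change 1.64, 1.54 to 5.97 CPM in high and 0.374 to 1.80 CPM in low vitellogenin clams), and IF6.1.2, which keeps the large ribosomal subunit free (0.48). SSR4, a subunit of the translocon complex at the endoplasmic reticulum, through which secreted proteins such as vitellogenin pass, rose by 0.69. It was the 1 of 5 secretory contigs that rose, where 14.2% of all symbols rose. Among 13 chaperones 1 rose, HSPB6, by 0.65. Among 6 redox contigs 0 passed, against 21.8% of all symbols.

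Lipoproteins, their receptors and enzymes of fatty acids gave 2 rises and 1 fall among 12 contigs, near the 14.2% and 7.59% of all symbols, with a median log2 fold change of 0.13. APOH.2.2, named for apolipoprotein H, a lipid-binding plasma protein in mammals, was at 2.61 to 3.73 CPM (median 3.14) in high and 1.51 to 2.48 CPM (median 2.01) in low vitellogenin clams, without overlap (log2 fold change 0.63, edgeR adjusted p = 0.0181). LRP4.1.2, of the family of low-density lipoprotein receptors, was at 10.7 to 36.7 CPM (median 20.6) in high and 2.28 to 12.6 CPM (median 7.66) in low vitellogenin clams (log2 fold change 1.54, edgeR adjusted p = 0.0326). ACSF3, an acyl-CoA synthetase, fell by 0.53 on the log2 scale. Among 8 contigs of steroid, thyroid and retinoid signalling 1 rose and 2 fell, against 14.2% and 7.59% of all symbols. RXR, the retinoid X receptor, rose (log2 fold change 0.57). RDH7.2.2, a retinol dehydrogenase, fell (−1.29), as did DHRS11.2.2 (−0.81), a short-chain dehydrogenase. RDH7.2.2 was at 4.27 to 43.8 CPM (median 26.8) in high and 38.3 to 88.4 CPM (median 66.5) in low vitellogenin clams.

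The list of digestive and lysosomal hydrolases moved both ways. Of 19 contigs, GUN left out, 3 rose, both proteases above among them, and 4 fell, against 14.2% and 7.59% of all symbols. FUCM and the NEURM contigs came in by name pattern and are not named for hydrolases. FUCM and NEURM.2.3 are among the 4 falls. The median log2 fold change of −0.49 was −0.06 with GUN as a term. Amylase, lipase and lysozyme, which mark the digestive gland beside GUN, were present in all 12 clams. Amylase (Amy.1.2), which digests starch, was at 126 to 555 CPM (median 412) in high and 550 to 766 CPM (median 642) in low vitellogenin clams, and did not pass (log2 fold change −0.75, edgeR adjusted p = 0.0807). The acid lipase LIPA was at 23.2 to 135 CPM (median 94.2) in high and 134 to 166 CPM (median 152) in low vitellogenin clams (−0.75, edgeR adjusted p = 0.105). The falls that passed included FUCM, a fucose-handling enzyme, at 39.6 to 151 CPM in high and 187 to 249 CPM in low vitellogenin clams (log2 fold change −0.83), CTSV, a cathepsin of lysosomes (−1.04), and NEURM.2.3 (−0.50). A second amylase contig, Amy.2.2, rose by 0.98 on the log2 scale at 2.28 to 5.2 CPM, against 0.836 to 3.18 CPM in low vitellogenin clams.

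Lysozymes and antimicrobial peptides gave 0 rises and 3 falls among 13 contigs, against 14.2% and 7.59% of all symbols, with a median log2 fold change of −0.79, or −0.23 with GUN as a term. LYS3.3.4, a lysozyme, which cuts bacterial cell walls, was at 19.4 to 86.5 CPM (median 52.3) in high and within 90.4 to 97.9 CPM (median 96.5) in low vitellogenin clams, without overlap (log2 fold change −0.84, edgeR adjusted p = 0.042). LYS3.3.4 lost its call in 9 of 12 fits with 1 clam left out. LYS1 fell by 0.63 on the log2 scale, also without overlap. LYS3.4.4 did not pass (300 to 1473 CPM in high, 1094 to 2155 CPM in low vitellogenin clams, log2 fold change −0.79, edgeR adjusted p = 0.105), and nor did the defensin BDEF.1.2 (−1.39, edgeR adjusted p = 0.0625).

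All 14 contigs named SPI2, which is the name of a serine protease inhibitor family, had a negative log2 fold change with a median of −0.94, and 5 of them fell, against 7.59% of all symbols; they were grouped after their values were seen. Their summed level was 1833 to 7734 CPM (median 5634) in high and 8067 to 15080 CPM (median 8982) in low vitellogenin clams, so that the groups did not overlap. The median of the list was −0.30 with GUN as a term. The shared sign and the count of falls follow in part from the grouping. SPI2.10.14 was at 30.9 to 92.4 CPM (median 48.2) in high and 67.7 to 206 CPM (median 115) in low vitellogenin clams (log2 fold change −1.24, edgeR adjusted p = 0.0238). Proprotein convertases are the enzymes that cut precursor proteins in the secretory pathway. Of 28 such contigs, likewise grouped afterwards, 9 fell and 0 rose, against 7.59% and 14.2% of all symbols. The median log2 fold change of the 28 was −0.37, or −0.06 with GUN as a term. Their count of falls, too, follows in part from the grouping. Inhibitors of other names rose, namely ITIH3 (log2 fold change 0.97) and Ppn (0.95), both picked after their values were seen. PCSK6 was at 2.90 to 6.94 CPM (median 3.66) in high and 6.21 to 13.1 CPM (median 9.49) in low vitellogenin clams (log2 fold change −1.19, edgeR adjusted p = 0.0162), and −1.08 with GUN as a term. FURIN.2.2 (−1.02), PCSK4.8.15 (−1.06), PCSK4.9.15 (−0.99) and PCSK4.14.15 (−0.80) fell without overlap.

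Of all lists, that of cell death control had the most falls by number. SPI2 inhibitors (5 of 14) and proprotein convertases (9 of 28), both grouped after values were seen, had a larger share of falls. Of 42 apoptosis contigs 11 fell and 3 rose, against 7.59% and 14.2% of all symbols, with a median log2 fold change of −0.31, or −0.11 with GUN as a term. BIRC7.9.9, of the inhibitors of apoptosis, was at 2.22 to 7.63 CPM (median 4.90) in high and 9.24 to 12.1 CPM (median 10.6) in low vitellogenin clams, with no overlap. It fell by 1.08 on the log2 scale (SE 0.213, edgeR adjusted p = 0.0162), passed without any 1 clam, and stood at −0.65 with GUN as a term. BIRC7.1.9 (−1.11), birc7.1.2 (−0.56) and CASP9.2.4 (−0.73) fell as well; the first 2 are named for inhibitors of apoptosis and the last for a caspase that starts cell death.

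The list of antiviral names gave 8 falls and 0 rises among 47 contigs, against 7.59% and 14.2% of all symbols. Its median log2 fold change was −0.35, or −0.07 with GUN as a term. The name pattern also took in TRIM-type names such as TRI33, TRIM24 and trim28, which are not all named for antiviral genes. TRI33.2.7 and trim28 are among the 8 falls. The level of rsad2, viperin, an enzyme that blocks viral replication in vertebrates, was 4.55 to 11.6 CPM (median 8.79) in high and 11.9 to 28.0 CPM (median 14.9) in low vitellogenin clams. The groups did not overlap, and the log2 fold change came to −1.02 (SE 0.24, edgeR adjusted p = 0.0208), with −0.74 under the GUN term. DDX58.3.3, named for the sensor of viral RNA known as RIG-I, fell by 0.58 without overlap, DDX58.2.3 by 0.49 with overlap, and trim28 (−1.01), a corepressor of transcription, and IRGC.2.3 (−0.70), an immunity-related GTPase, fell too. Among 59 contigs of immune recognition 3 rose, among them C1QTNF3 and FCN2.2.4, and 5 fell, against 14.2% and 7.59% of all symbols. Of these PGRP2, a peptidoglycan recognition protein, fell by 0.58, and the perforin-like MPEG1.2.4 by 0.90 on the log2 scale.

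Other large falls among symbols were RHOG.3.4, a small GTPase of the cytoskeleton (log2 fold change −1.27), P2A03 (−1.16), cln6, a membrane protein tied to lysosomal storage (−1.14), RN145, a ring finger ubiquitin ligase (−1.11), and HMCN1.3.7, a hemicentin of the extracellular matrix (−1.10). Each passed edgeR without any 1 of the 12 clams. The level of cln6 did not overlap between the groups, at 4.83 to 18.3 CPM in high and 26.4 to 36.5 CPM in low vitellogenin clams. Among contigs of foreign compound metabolism 2 of 24 rose and 3 fell, against 14.2% and 7.59% of all symbols. EST2E.2.2, a carboxylesterase, was up by 1.11 and mgst1.2.2, a microsomal glutathione transferase, down by 0.89 on the log2 scale. Of 5 mobile element contigs 1 fell, against 7.59% of all symbols. It was LORF2.1.3, named for the second reading frame of a LINE element, with a log2 fold change of −0.73. Among 8 contigs of iron and metal handling 1 rose and 1 fell, against 14.2% and 7.59% of all symbols. HEPH.1.2 rose by 1.79 and HEPH.2.2 fell by 0.88, both named for hephaestin, a copper enzyme that oxidises iron.

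Contigs without a symbol are described by their values alone. LOC105339654.5.5 was at 3.13 to 23.4 CPM (median 6.51) in high and 0.449 to 2.09 CPM (median 1.26) in low vitellogenin clams (log2 fold change 2.89, edgeR adjusted p = 0.0163). LOC105339235 was at 12.5 to 43.0 CPM (median 13.5) in high and 0.287 to 6.09 CPM (median 3.09) in low vitellogenin clams (2.68, edgeR adjusted p = 0.0282). LOC105327288 was at 2.50 to 19.5 CPM (median 7.26) in high and 19.6 to 63.9 CPM (median 39.2) in low vitellogenin clams (−2.23, edgeR adjusted p = 0.0183). It kept a log2 fold change of −2.24 with GUN as a term. contig_16841 was at 3.12 to 40.2 CPM (median 23.6) in high and 57.3 to 138 CPM (median 101) in low vitellogenin clams (−2.14, edgeR adjusted p = 0.022). The smallest adjusted p belonged to contig_17903, named here after its values were seen, at 1.73 ± 0.258 CPM in high and 4.71 ± 0.746 CPM in low vitellogenin clams (SD, n = 6 each; log2 fold change −1.44, edgeR adjusted p = 0.00281); it was also the contig that passed without individuals 48 and 60 (−1.32, edgeR adjusted p = 0.0402).

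**Figure D3:**
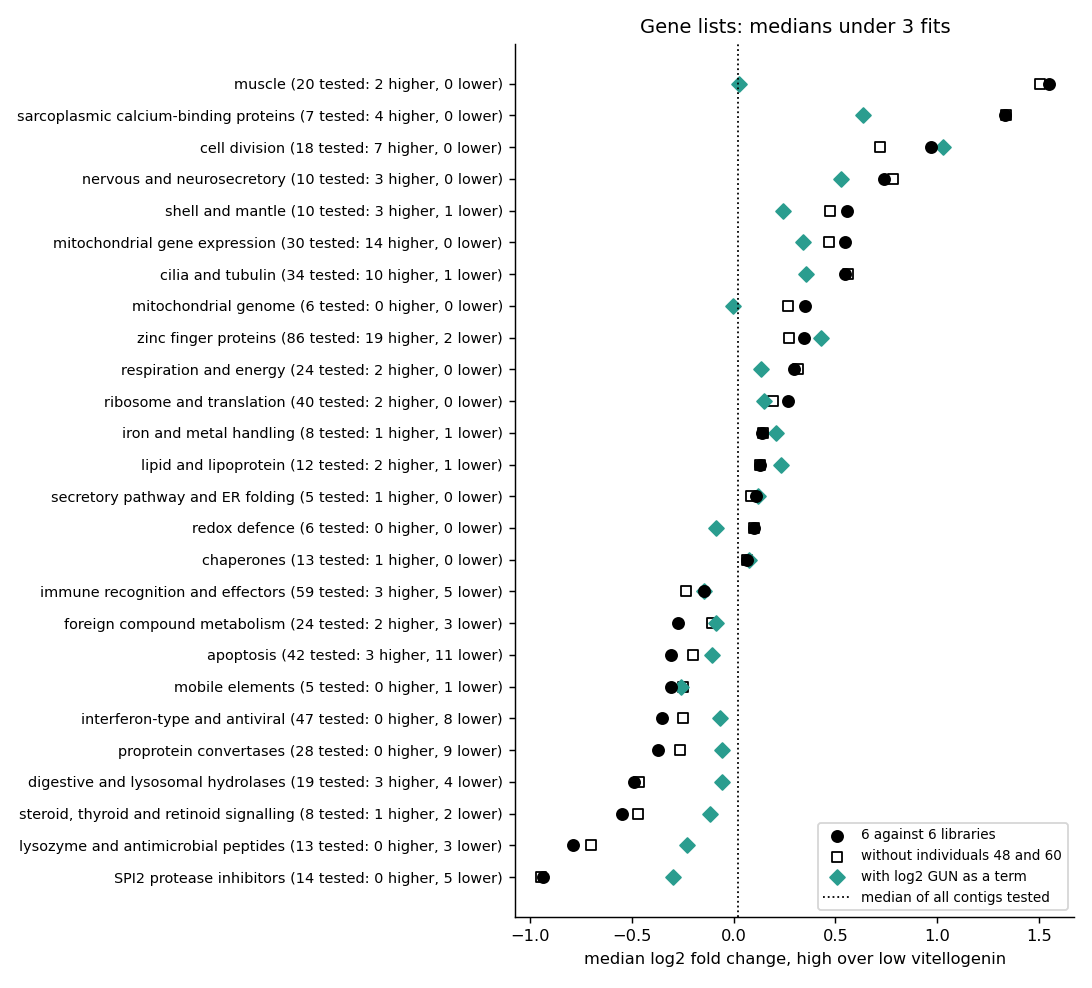
Median log2 fold change of the 26 of 29 gene lists with at least 5 contigs tested (the egg, germline and sperm lists are smaller), high over low vitellogenin clams, over the 12 libraries (circles), without individuals 48 and 60 (squares) and with log2 CPM of GUN as a term (diamonds); the dotted line is the median of all contigs. Cell division stayed near 1 under the GUN term (0.97 and 1.03), while muscle moved to 0.03 and digestive hydrolases to −0.06. Individual 33 had the least GUN of the 12 clams, and list medians under this term were not computed without it. SPI2 inhibitors, sarcoplasmic calcium-binding proteins, mitochondrial gene expression, convertases and zinc fingers were grouped after values were seen.

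Of the 64 named contigs that passed, 0 passed with GUN as a term (53 at an unadjusted p under 0.05), 0 with site as a term (62 unadjusted) and 0 without individuals 48 and 60 (64 unadjusted), all by edgeR. Of these 64, 15 passed without any 1 clam. With 1 clam left out at a time, ctrl.L lost its call in 10 of 12 fits. TRYM, sidkey-239b22.1, OCDH, TPM.1.5, RDH7.2.2 and LYS3.3.4 lost it in 9, and DOPR4 and CTSV in 8. Values did not overlap between the groups for 24 of the 64, 6 above and 18 below in high vitellogenin clams. Over all contigs 2.26% lay above and 4.52% below. The 64 were chosen for passing, and those without a symbol also for no overlap, so their count follows in part from the choice.

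Libraries in neither group were not used in the choice of genes and are given as a description. The 5 clams between the groups in Vg.1.2 had a mean between both group means for 94.8% of contigs that rose and 94.5% of those that fell. Over all contigs this share was 57.7%. Contigs that passed had group means further apart (median absolute log2 fold change 0.79 for rises, 0.72 for falls and 0.31 over all contigs). The higher share among them therefore follows in part from the choice. The level of sall1.1.2_bis was 2.01 to 3.02 CPM (median 2.22) in these 5 clams and C1QTNF3 was at 46.3 to 105 CPM (median 76.4). The 7 clams with GUN under 100 CPM had Vg.1.2 at 2238 to 4367 CPM, and their mean lay beyond that of high vitellogenin clams for 58.4% of contigs that rose, 81.2% of those that fell and 58.7% of all contigs. In them sall1.1.2_bis stood at 5.37 to 14.6 CPM (median 10.5), CAH2 at 66.2 to 118 CPM (median 75.9) and ctrl.L at 30.7 to 526 CPM (median 288). LYS3.3.4 stood at 3.08 to 10.6 CPM (median 4.04), below every high vitellogenin clam, whereas cks1b, at 2.87 to 4.60 CPM (median 3.79), was no further than in high vitellogenin clams.

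**Figure D4:**
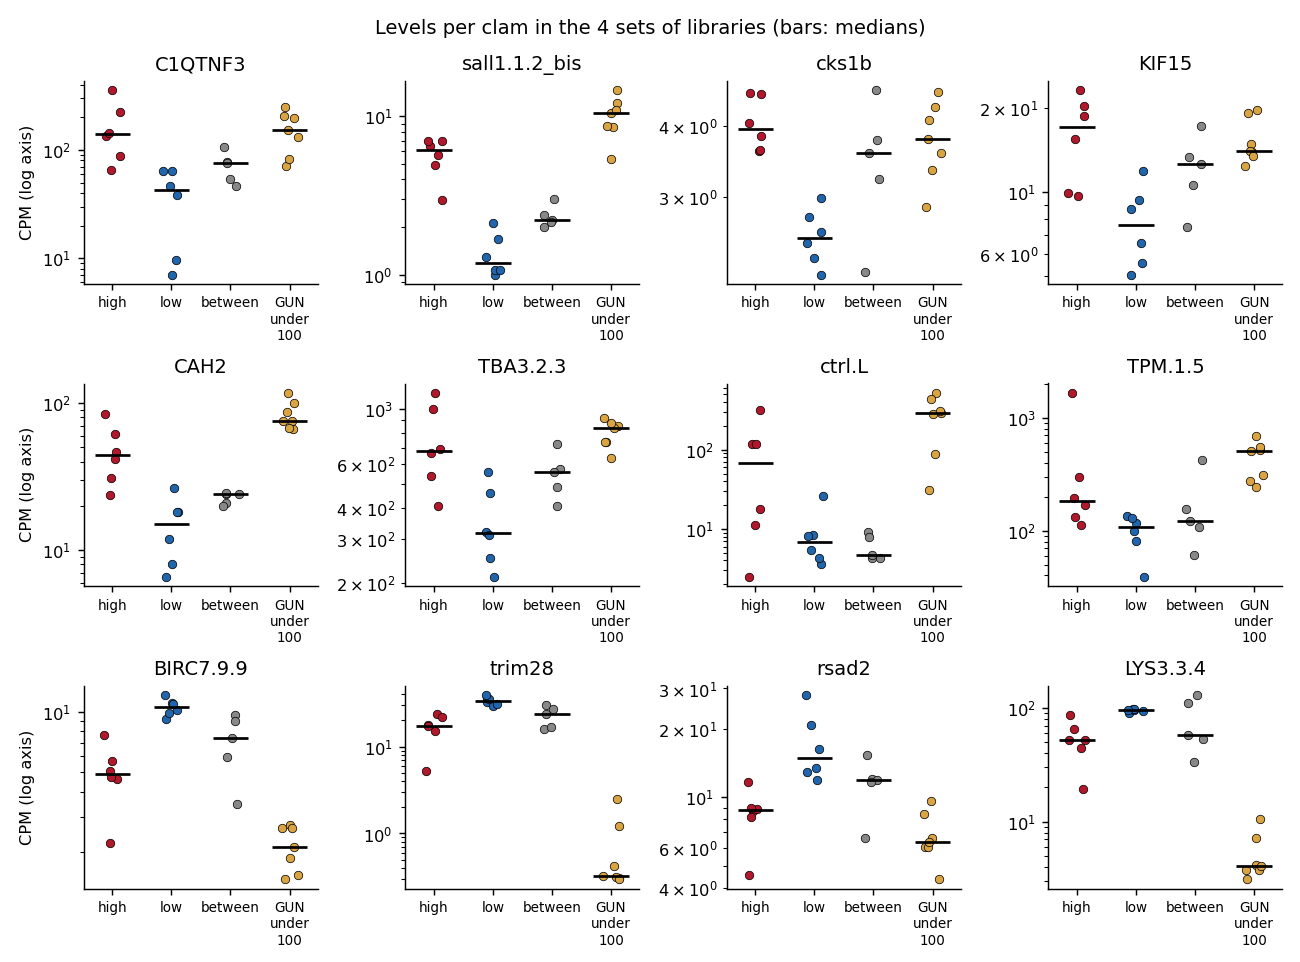
CPM of 12 named contigs per clam on log axes in high and low vitellogenin clams, in the 5 clams between them and in the 7 clams with GUN under 100 CPM; points are clams and bars are medians. The clams between lie mostly between both groups, which follows in part from the choice of contigs that passed. The clams poor in GUN lie far below high vitellogenin clams for LYS3.3.4 but level with them for cks1b.

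The sequencing lanes held separate clams, 3 of each group in each lane, so each direction can be read in either lane. GUN was at 136 to 442 CPM in high and 618 to 813 CPM in low vitellogenin clams of lane 3. In lane 4 it was at 534 to 667 and 658 to 772 CPM. Agreement between lanes therefore cannot tell vitellogenin and GUN apart, and contigs that vary together do not count as replicates. The log2 fold change had the same sign in both lanes for 75.2% of 56514 contigs, for 92.4% of the 13553 contigs at an unadjusted p under 0.05 in lane 3, and for 94.0% of the 11220 in lane 4. Within a lane, edgeR called 0 contigs at an adjusted p under 0.05 (13627 unadjusted in lane 3 and 11257 in lane 4, which include contigs tested in 1 lane). BIRC7.9.9 had a log2 fold change of −1.43 in lane 3 and −0.80 in lane 4, sall1.1.2_bis of 2.52 and 1.60, and KIF15 of 0.81 and 1.31.

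**Figure D5:**
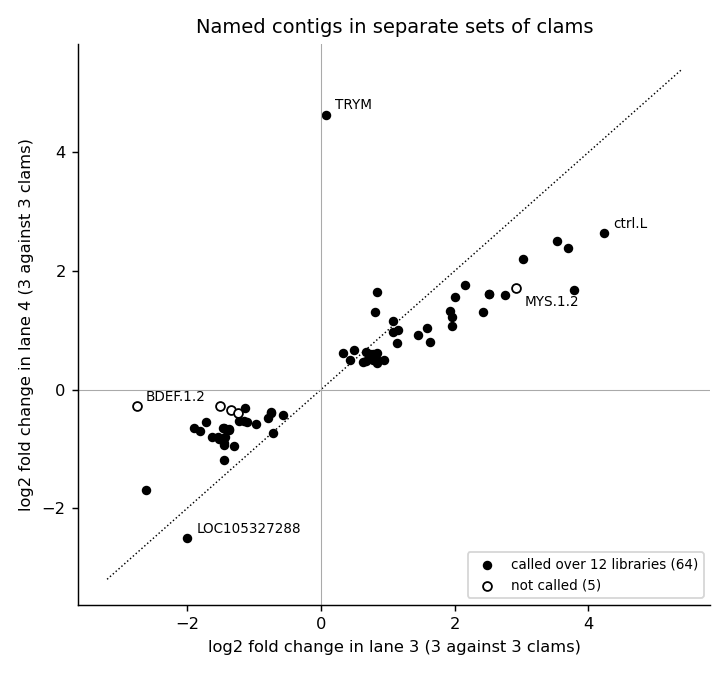
Log2 fold change, high over low vitellogenin clams, of 69 named contigs (GUN, which chose the clams, left out) in lane 4 (vertical) against lane 3 (horizontal), each from 3 against 3 clams; filled points passed over the 12 libraries (64) and open points did not (5), and the dotted line marks equal values. All lie on the same side of 0 in both lanes, which for the filled points follows in part from their choice over all 12 clams, and TRYM stands out with 0.07 in lane 3 and 4.64 in lane 4.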

How the data were processed

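Digestive gland RNA was sequenced with TruSeq RNA v2 libraries, per the labels' protocols. The deposited table holds raw read counts per contig for 24 libraries, and the submitters' processing notes list BWA 0.7.12 and SAMtools 1.1; assembly, counting rule, strand use and contig naming were not given in the sources used here. Clams were ranked on CPM of column totals, after a leading Reg_ was removed from names. The 12 libraries were fitted with edgeR 4.0.16 in R 4.3.3 (TMM, filterByExpr with a minimum count of 10, robust quasi-likelihood), with no covariate and with Benjamini-Hochberg adjustment over all contigs. The filter took out 1457 of 58291 contigs, with 0.0182% of counts, and 56834 went into the fit. Both vitellogenin contigs stayed in the fit and out of the results. Fold changes are high over low vitellogenin, and SE is the standard error of a log2 fold change. The biological coefficient of variation was 31.0%. Library totals were 40.4 to 97.7 M counts.

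Genes were named by rule: the 10 symbols with the largest rise and the 10 with the largest fall (adjusted p under 0.05, mean of at least 2 CPM over the 12 libraries, medians in the same direction), up to 3 members per list by smallest p, 2 contigs without a symbol in each direction (at least 5 CPM, no overlap), and GUN, Amy.1.2, LIPA, LYS3.4.4, BDEF.1.2, MYS.1.2, ctrl.L and TRYM in any case. Further symbols that passed are named as examples, chosen after their values were seen; 1 gene that the rule took is not reported here. Comparison, members and lists were chosen with earlier results of these data known. The 24 lists are name patterns. Names found to match by letters alone were set aside after values were seen, but FUCM and the NEURM contigs stayed in. After values were seen, 5 further lists were drawn up. Of these, 86 zinc finger contigs gave 19 rises and 2 falls, against 14.2% and 7.59% of all symbols, with a median log2 fold change of 0.35. Counts and signs in the 5 lists follow in part from their being drawn up afterwards. P-values measure the spread between clams, and many contigs vary together. The scripts were tested on simulated data. Alternatives were scaling, filters, thresholds, terms for site, lane and GUN, single lanes, group size, the GUN minimum, leaving out clams, DESeq2 1.42.0 and limma-voom (limma 3.58.1).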

Additional observations from a re-analysis of the deposited data

Results flagged for a closer look

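In 16 of 138 groups of 6 clams (69 named contigs in each of both groups), the highest or lowest clam lay far from the others, with a gap that took more of the whole range than Dixon's 95% critical value; chance marks about 1 in 20 groups, and contigs that vary together are marked together. High vitellogenin individual 33 from the WWTP site was the highest of its group for OCDH at 56.4 CPM, TPM.1.5 at 1674 CPM, TBA1.5.7 at 846 CPM, CO4A1 at 78.5 CPM, LOC105339235 at 43.0 CPM and MYS.1.2 at 4264 CPM, and the lowest for cln6 at 4.83 CPM. In the same group WWTP individual 37 stood apart for ctrl.L at 317 CPM and WWTP individual 38 for PCSK6 at 6.94 CPM. Low vitellogenin individual 23 from the reference site was the highest of its group for ctrl.L at 26.2 CPM, DOPR4 at 2.44 CPM and FCN2.2.4 at 5.84 CPM, and the lowest for LYS3.3.4 at 90.4 CPM. Low vitellogenin individual 46 from the WWTP site was the highest for IF6.1.2 at 3.60 CPM and EST2E.2.2 at 3.55 CPM, and urban runoff individual 60 for RHOG.3.4 at 9.72 CPM.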

How the results depend on the processing

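Over the 12 libraries 9492 contigs were called, 4714 higher and 4778 lower. Library totals without scaling factors gave 7935 higher and 1934 lower. Calls fell to 1 (0 higher, 1 lower) at an adjusted p under 0.01, to 0 (0 and 0) for changes tested beyond a log2 fold change of 1 (1171 unadjusted), to 0 (0 and 0) with site as a term, with GUN as a term and with site, lane and GUN as terms, to 0 (0 and 0) in lane 3 and in lane 4 alone, to 5577 (2990 and 2587) for the 5 highest against the 5 lowest and to 16 (13 and 3) for 4 against 4. A slope on log2 CPM of Vg.1.2 over 17 libraries gave 14756 (7866 higher), and DESeq2 gave 15214 (7834 and 7380; 26.8%). limma-voom gave 13522 (23.8%), with 7350 lower. Leaving out 1 clam gave 2284 to 11830 calls, with 1113 to 5800 higher and 1171 to 6054 lower. In alternatives added after the data were seen, leaving out individuals 48 and 60 gave 1 (0 and 1), and leaving out individual 33 with GUN as a term gave 53 (18 and 35). Some of these settings hold fewer clams, and the cause of these moves was not tested. Other scalings, filters, lane as a term, 17 libraries with the middle clams and GUN minimums of 50 or 200 CPM gave 8416 to 11771. None of the 64 named contigs that passed changed direction under any alternative in which they were tested. The named contigs that did not pass were checked for this only where an alternative called them. No paired analysis was possible because the labels number no clam as a partner of another. Depth limits contigs near the floor of 0.0307 to 0.0729 CPM.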

Other observations

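Some symbols that no list held and the naming rule did not take showed no overlap between the groups; they were picked after their values were seen. SBP1A, named for a selenium-binding protein, was at 893 to 2570 CPM (median 1579) in high and 401 to 831 CPM (median 636) in low vitellogenin clams (log2 fold change 1.35, edgeR adjusted p = 0.0175). GEN1, a nuclease that resolves crossed DNA strands during recombination and repair, was at 4.24 to 7.34 CPM (median 5.68) in high and 1.19 to 2.55 CPM (median 2.14) in low vitellogenin clams (1.47, edgeR adjusted p = 0.0128). Of the contigs named for plasminogen, a serine protease precursor, PLMN.1.3 was at 21.4 to 66.1 CPM in high and 5.82 to 16.6 CPM in low vitellogenin clams, and PLG at 8.81 to 28.5 CPM in high and 1.95 to 7.05 CPM in low vitellogenin clams. SALM, a second contig named for the spalt family, rose by 1.08 on the log2 scale, with overlap. TSPO, a protein of the outer mitochondrial membrane that binds cholesterol, was at 24.1 to 94.9 CPM (median 65.9) in high and 100.4 to 161 CPM (median 125) in low vitellogenin clams (−0.97, edgeR adjusted p = 0.0294).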
